A study of Homo sapiens with 6 samples.

Results

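The EGF receptor family and its ligands were followed in Huh-7, a human hepatocellular carcinoma line, after overexpression of ALKBH5. The set held 10 genes of the 18030 measured, taken by symbol through their Entrez identifiers. They were the receptor genes EGFR, ERBB2, ERBB3 and ERBB4, the ligand genes AREG, EREG, HBEGF, TGFA and BTC, and ERRFI1, the gene of an intracellular receptor inhibitor. Messenger RNA was sequenced from 3 libraries of cells carrying the plasmid for ALKBH5 (oeALKBH5) and 3 control libraries. ALKBH5 is an enzyme that takes the methyl mark N6-methyladenosine (m6A) off RNA. The labels describe electroporation with 3 pulses of 1250 V and 20 ms, and RNA taken 60 h later. The labels give this protocol for the controls too, whose genotype is WT, while the design speaks of parental cells, and all 6 libraries bear the treatment label Untreated. Whether the controls were electroporated, or given an empty plasmid, is therefore not stated. No promoter of the plasmid is named. The titles call the libraries of each group biological replicates; whether these were separate cultures or transfections is not spelled out, and the p-values rest on the scatter among them. In bulk RNA, fewer cells of a type and less RNA per cell cannot be told apart.

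The ERBB receptors are tyrosine kinases of the cell surface that pair with one another once a ligand binds. Ligands are made as membrane-anchored precursors, cut loose by ADAM proteases, and act on the same or neighbouring cells. EGFR binds AREG, TGFA and EGF; HBEGF, BTC and EREG bind both EGFR and ERBB4. ERBB2 has no known ligand and serves as a partner, and ERBB3 has a weak kinase and binds neuregulins. Signals pass through RAS and ERK and through PI3K and AKT. ERRFI1, also called MIG6, binds the active kinase domain and blocks it. In liver the pathway is known for its part in regeneration after injury.

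ALKBH5 itself checked the labels. Its level was 169, 133 and 110 CPM (counts scaled to library size, with TMM factors) in the oeALKBH5 libraries and 70.6, 74.2 and 75.5 CPM in controls. The log2 fold change was 0.90 (SE 0.177, edgeR adjusted p = 0.0154). With control replicate 2 or 3 left out, edgeR no longer called it (adjusted p = 0.0529 and 0.0589). The libraries held between 18607084 and 19378030 estimated counts. Pairs of oeALKBH5 libraries differed more in their counts than pairs of controls did, with chi-square values of 3.14 to 7.50 and 1.66 to 2.36 for each degree of freedom. Markers of the hepatocyte were present, led by ALB and AFP, and 9 of 10 were lower in oeALKBH5 cells. Their summed level was 21840 to 23440 CPM there and 33010 to 33550 CPM in controls. Over all genes tested, 20.8% were higher and 22.0% lower by edgeR. Of 6 stellate and fibroblast markers tested, 2 were higher and 1 lower (35.9 to 36.4 against 29.4 to 31.7 CPM). Of 6 cholangiocyte markers 2 were higher and 2 lower (328 to 358 against 410 to 412 CPM). The 4 leukocyte markers tested had adjusted p from 0.0813 to 0.989 by edgeR (359 to 394 against 346 to 355 CPM). The highest of that list were LYZ, at 231 and 204 mean CPM in oeALKBH5 and control, and CD68, at 138 and 138. CD3E was at 0.0519 and 0.0884 mean CPM. Of 6 endothelial markers listed, CLEC4G was not analysed, and of the others only PECAM1 was high enough to test. PECAM1 was lower, and the analysed markers summed to 11.6 to 12.3 against 17.5 to 21.3 CPM. CDH5 was at 0.243 and 0.408 CPM on average. The part of these marker differences in the values below was not tested.

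The promoters of 3 genes are shown because AREG and ERRFI1 were among the members that rose, and EREG is the ligand gene beside AREG on chromosome 4. Each stretch is the 250 bases before the RefSeq start (GRCh38.p14), 5′ to 3′ on the gene's strand, with matches to 4 motifs in capitals. AREG lies at chr4:74444886-74445135 (plus), EREG at chr4:74364895-74365144 (plus) and ERRFI1 at chr1:8026310-8026559 (minus).
AREG: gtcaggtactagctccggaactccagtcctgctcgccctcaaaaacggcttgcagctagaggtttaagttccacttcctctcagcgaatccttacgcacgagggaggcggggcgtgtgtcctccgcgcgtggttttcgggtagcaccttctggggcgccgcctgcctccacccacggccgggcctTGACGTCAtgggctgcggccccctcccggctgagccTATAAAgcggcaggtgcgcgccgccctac
EREG: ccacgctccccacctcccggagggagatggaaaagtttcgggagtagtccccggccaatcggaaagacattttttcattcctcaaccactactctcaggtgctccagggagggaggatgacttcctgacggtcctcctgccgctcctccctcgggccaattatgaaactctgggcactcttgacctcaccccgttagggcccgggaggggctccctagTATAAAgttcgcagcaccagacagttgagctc
ERRFI1: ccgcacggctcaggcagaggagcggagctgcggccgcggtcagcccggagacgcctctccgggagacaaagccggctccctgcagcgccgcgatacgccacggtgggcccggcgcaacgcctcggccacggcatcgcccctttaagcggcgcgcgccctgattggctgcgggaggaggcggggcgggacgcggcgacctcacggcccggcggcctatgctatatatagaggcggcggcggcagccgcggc
The motifs were searched on both strands, and these letters do not overlap one another: the cyclic AMP response element TGACGTCA, the AP-1 motif TGANTCA, the ETS motif CCGGAAGT and the TATA motif TATAAA. In AREG the cyclic AMP response element began 65 bases before the start and the TATA motif 29 bases before it. Of 16764 promoters of tested genes, 2.28% held the former and 6.58% the latter. EREG held the TATA motif 32 bases before its start and none of the other capitals. The ERRFI1 stretch held none of the 4 as spelled here. It does hold the letters tatatata near its end, a related run that the search for TATAAA does not count. AP-1 letters were in 4.70% and ETS letters in 5.61% of all promoters. Its base composition was 75.2% G and C, against a median of 64.0% over all promoters and 65.2% in AREG. A match is a description of letters and was not tested as a site. The table's promoter of ERBB2 lies 11986 bases from the start of that gene's most abundant transcript and is not shown.

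Because ALKBH5 acts on m6A, the letters GGACT, the core in which the mark is often found, were counted in the most abundant transcript of each member (GENCODE release 29, sense strand). No other letters were counted and no m6A was measured here, so 0 matches does not mean 0 marked sites. AREG and ERRFI1 held 0 GGACT matches in 1240 and 3104 nucleotides, as did 9.52% of 13593 tested genes with a matched transcript. EGFR held 12 in 9821 nucleotides, ERBB3 7 in 5919, ERBB2 3 in 4545 and EREG 3 in 4619. HBEGF held 4 in 2386 nucleotides and BTC 1 in 2816. Only EGFR and HBEGF among the 8 tested members held one within 200 bases of the stop codon, a window that held one in 38.3% of 11743 genes. These sites are shown for that position, with GGACT in capitals; EGFR's lies in coding exon 28 at chr7:55205496-55205520 (plus), and HBEGF's in the 3′ UTR in exon 6 at chr5:140334255-140334279 (minus), 30 bases past the stop.
EGFR: actaccagcaGGACTtctttcccaa
HBEGF: aatcggctggGGACTgctacctctg

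Huh-7 cells carried the mRNA of 3 of the 4 receptors. The authors' FPKM values, fragments scaled for transcript length and depth, allow levels of different genes to be ordered. Over the 6 libraries the mean was 72.1 FPKM for ERRFI1, 63.1 for ERBB3, 40.8 for ERBB2 and 25.2 for EGFR. These levels lay at percentiles 93.5, 92.5, 88.3 and 81.4 of all genes. Among ligands AREG was at 7.32 FPKM, HBEGF at 1.75, BTC at 0.995 and EREG at 0.255. The ranges of neighbours in this order did not overlap, save ERRFI1 and ERBB3, whose libraries ran from 63.1 to 87.8 and from 61.1 to 67.2 FPKM. TGFA and ERBB4 came last at 0.015 and 0.0033 FPKM, and their ranges overlapped.

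**Figure D1:**
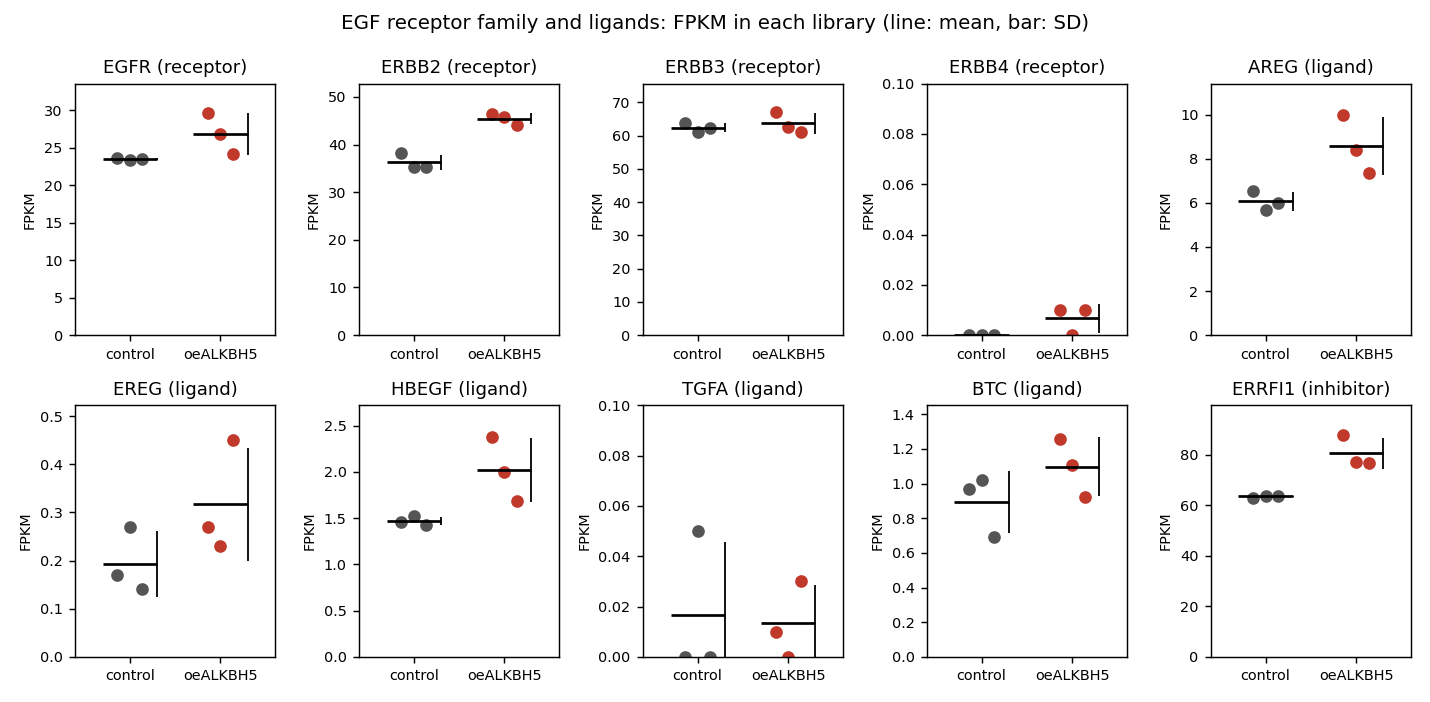
FPKM of each member gene in each library, with points for single libraries, a line for the group mean and a bar for the SD (n = 3); every vertical axis starts at 0 and differs between panels. ERBB2, AREG, HBEGF, EGFR and ERRFI1 have all oeALKBH5 points above all control points, while ERBB3, EREG and BTC overlap. The share of all genes that did so in FPKM is not given here. In CPM, where EGFR overlaps, 4 members did so, beside 25.8% of all genes tested.

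Of the 10 members, 8 passed the filter on low counts and were tested. ERBB2, AREG and ERRFI1 rose, 0 fell and 5 had no call (edgeR, adjusted p under 0.05). At an unadjusted p under 0.05 the number that fell was also 0, as it was with DESeq2, limma-voom and limma on FPKM. Over all 14168 genes tested, 20.8% rose and 22.0% fell. A log2 fold change above 0 was found for 7 of the 8, and the median was 0.26 against 0.0062 over all genes tested. The members were chosen with earlier results of these data known. In 4 members every oeALKBH5 library was above every control in CPM; 25.8% of all genes did so. FPKM summed over all genes was 484573 to 498661 in oeALKBH5 and 512667 to 518953 in control libraries. On log2(FPKM + 1) 5 of 7 members tested by limma rose, with EGFR and HBEGF added, and 29.4% of 12016 genes did so. Replicate 1 had the highest level of the oeALKBH5 group in 7 of the 8 members, and in 37.1% of all genes. It was also the library with most ALKBH5. Without it ERBB2, AREG and ERRFI1 kept their calls, at log2 fold changes of 0.23, 0.30 and 0.21.

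**Figure D2:**
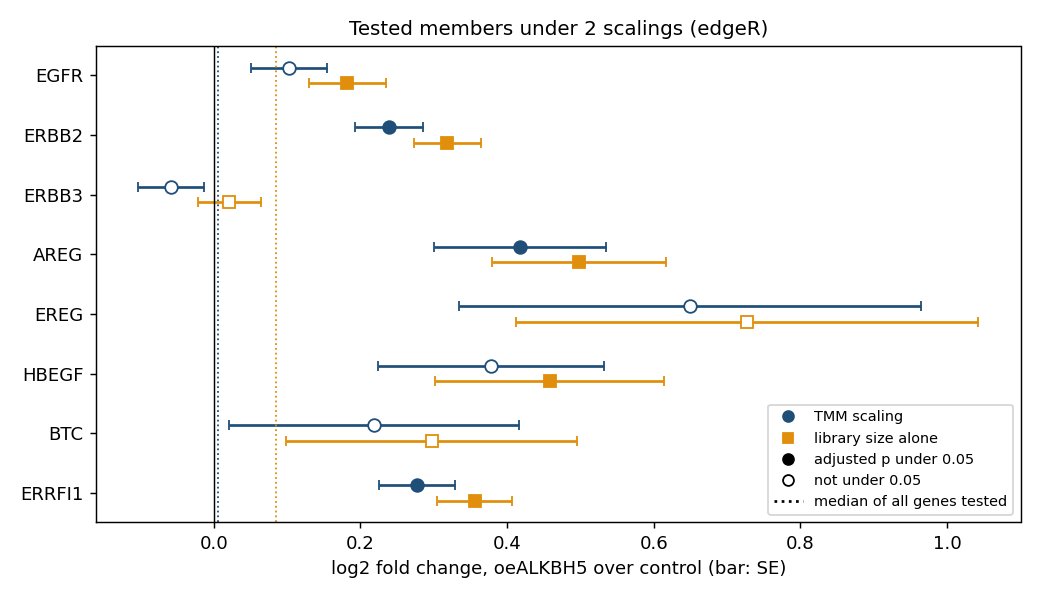
Log2 fold change of each tested member, oeALKBH5 over control, with SE bars, under TMM scaling (circles) and library size alone (squares); filled symbols have an adjusted p under 0.05 in edgeR, and dotted lines mark the median of all genes. ERBB2, AREG and ERRFI1 are filled under both scalings, EGFR and HBEGF with library size alone, and ERBB3 moves from -0.06 to 0.02.

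Among the receptors, ERBB2 (Entrez 2064, chr17:39687914-39730426, plus strand; gene positions are GRCh38, GENCODE release 29) encodes the partner of the other receptors. Its level was 206, 203 and 198 CPM in oeALKBH5 libraries and 180, 167 and 168 CPM in controls. The groups did not overlap: the lowest oeALKBH5 library was above the highest control. The log2 fold change was 0.24 (SE 0.0467, edgeR adjusted p = 3.72e-04), a 1.18-fold rise. In FPKM the level was 45.4 ± 1.15 against 36.3 ± 1.61 (SD, n = 3 each), a change of 0.32 on the log2(FPKM + 1) scale (limma adjusted p = 3.47e-04).

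EGFR (Entrez 1956, chr7:55019021-55211628, plus strand) encodes the receptor of AREG and EGF. Its level was 267, 247 and 229 CPM in oeALKBH5 and 235, 229 and 228 CPM in control libraries. Replicate 3 of oeALKBH5 lay within the control range and the other 2 above it. The log2 fold change was 0.10 (SE 0.0518), with no call by edgeR (adjusted p = 0.119). It was 0.05 without oeALKBH5 replicate 1 (adjusted p = 0.419). EGFR passed without oeALKBH5 replicate 3 (0.16, adjusted p = 0.00652) and with library size alone (0.18, adjusted p = 0.00837). In FPKM the libraries held 29.7, 26.8 and 24.1 against 23.6, 23.4 and 23.4, with no overlap, and limma gave 0.18 (adjusted p = 0.0409). That FPKM call was lost when any library other than oeALKBH5 replicate 3 was left out (adjusted p from 0.0948 to 0.104). An antisense gene, EGFR-AS1, overlaps EGFR, and the strand setting of the counting is not given in the sources used here.

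ERBB3 (Entrez 2065, chr12:56076799-56103505, plus strand), the neuregulin receptor, was the most abundant receptor mRNA. Its level was 336, 323 and 318 CPM in oeALKBH5 and 349, 330 and 338 CPM in controls, and the groups overlapped. The log2 fold change was -0.06 (SE 0.0448, edgeR adjusted p = 0.307), and its sign turned with library size alone (0.02) and on FPKM (0.03). ERBB4 (Entrez 2066, chr2:211375717-212538841, minus strand), the other neuregulin receptor, held estimated counts of 2, 0 and 2 against 1, 0 and 1. These lie under the 3 counts that a count of 0 allows, or 0.156 to 0.161 CPM in these libraries, for counting error only. ERBB4 was not tested and no fold is given.

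Ratios between receptors take out the scaling of a library. The ratio of ERBB2 to ERBB3 FPKM was 0.689, 0.730 and 0.722 in oeALKBH5 and 0.598, 0.579 and 0.567 in controls. All 3 oeALKBH5 ratios were above all 3 control ratios (exact permutation test, two-sided, p = 0.1, the smallest that 3 against 3 can give). The ratio of EGFR to ERBB3 was 0.421 ± 0.0239 against 0.376 ± 0.00676 (SD, n = 3 each; exact permutation p = 0.1). The 4 receptors together summed to 136 ± 6.95 and 122 ± 3.02 FPKM (SD, n = 3 each; exact permutation p = 0.1). Their summed CPM, with TMM factors, was 744.4 to 809.7 in oeALKBH5 and 725.8 to 763.5 in control libraries, with overlap. The FPKM sums and ratios did not overlap between the groups. A test of this size cannot pass 0.05.

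AREG (Entrez 374, chr4:74445134-74455009, plus strand) encodes amphiregulin, a ligand of EGFR that is induced in injured liver. Its estimated counts were 221, 185 and 164 in oeALKBH5 libraries and 149, 130 and 138 in controls, or 11.5, 9.60 and 8.56 against 8.01, 6.86 and 7.33 CPM. The groups did not overlap, though the lowest oeALKBH5 library stood close above the highest control. AREG rose 1.34-fold (log2 fold change 0.42, SE 0.118, edgeR adjusted p = 0.00722). Over all 17 settings the adjusted p ran from 0.00110 to 0.0440. It made up most of the ligand mRNA in both groups, with 71.3 ± 0.694% of the summed ligand FPKM in oeALKBH5 and 70.2 ± 3.30% in controls (SD, n = 3 each; exact permutation p = 0.8).

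HBEGF (Entrez 1839, chr5:140332843-140346631, minus strand) encodes a heparin-binding ligand of EGFR and ERBB4. Its estimated counts were 103, 86 and 73 against 65, 68 and 64. The groups did not overlap, and the controls lay within a narrow band below the oeALKBH5 libraries. The log2 fold change was 0.38 (SE 0.154), just missing the threshold by edgeR (adjusted p = 0.0540). It was 0.25 without oeALKBH5 replicate 1 (adjusted p = 0.252), and DESeq2 gave an adjusted p of 0.168. HBEGF passed without oeALKBH5 replicate 3 (0.49, adjusted p = 0.0165), with library size alone (0.46, adjusted p = 0.0226), with upper quartile scaling (adjusted p = 0.0430) and with a filter at a mean count of 50 (adjusted p = 0.0421). On log2(FPKM + 1) it was called by limma (0.28, adjusted p = 0.0214). That call was lost without oeALKBH5 replicates 1 (adjusted p = 0.0735) or 2 (0.0551) and without control replicates 1 (0.0635) or 3 (0.0603).

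EREG and BTC, which encode epiregulin and betacellulin, had few reads. EREG (Entrez 2069, chr4:74365143-74388751, plus strand) held 23.3, 19.8 and 38.7 estimated counts against 15.3, 23.9 and 12.3. Control replicate 2 was above oeALKBH5 replicates 1 and 2. The log2 fold change of 0.65 had an SE of 0.315 (edgeR adjusted p = 0.103), and it depended on single libraries. It was 0.30 without oeALKBH5 replicate 3 (adjusted p = 0.489) and passed without control replicate 2 (0.97, adjusted p = 0.0449). BTC (Entrez 685, chr4:74744759-74794686, minus strand) held 54, 49 and 41 against 42, 46 and 33, with overlap (log2 fold change 0.22, SE 0.198, edgeR adjusted p = 0.394). Its value was 0.09 without control replicate 3 and 0.13 without oeALKBH5 replicate 1. TGFA (Entrez 7039, chr2:70447280-70554193, minus strand) held 1, 0 and 2 against 0, 4 and 0 and was not tested. AREG, EREG and BTC lie in 1 cluster on chromosome 4; AREG passed and its neighbours did not, and a difference between them was not tested.

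The 5 ligands together summed to 13.9, 11.7 and 10.4 FPKM in oeALKBH5 and 9.13, 8.53 and 8.27 in controls. Every oeALKBH5 sum was above every control sum, with means of 12.0 ± 1.75 and 8.64 ± 0.441 FPKM (SD, n = 3 each) and a ratio of 1.39. The exact permutation test gave p = 0.1, its smallest value. The difference of 3.37 FPKM ran from 2.44 to 4.17 with 1 library left out, and the lowest value was that without oeALKBH5 replicate 1.

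ERRFI1 (Entrez 54206, chr1:8004404-8026308, minus strand), whose product inhibits the active receptors and whose mRNA is induced by their signal, also rose. Its level was 265, 230 and 235 CPM in oeALKBH5 libraries and 201, 200 and 201 CPM in controls. The controls were almost equal and all oeALKBH5 libraries stood above them. The rise was 1.21-fold (log2 fold change 0.28, SE 0.0517, edgeR adjusted p = 2.43e-04), with adjusted p from 1.01e-05 to 0.00335 over 17 settings. Its FPKM was 3.01 ± 0.162 times that of EGFR in oeALKBH5 and 2.71 ± 0.0272 times in controls (SD, n = 3 each; exact permutation p = 0.1), without overlap.

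The deposited values hold 34 transcripts of the members. The 11 that carried at least 10% of their gene's estimated counts were tested among 45502 transcripts. One of them rose, and 0.281% of all transcripts did so (edgeR). It was ERBB2 NM_004448.3, which held 92.3% of the gene's counts and changed by 0.32 (SE 0.0360, adjusted p = 0.0287). Its share was 94.1%, 93.1% and 96.7% in oeALKBH5 and 89.1%, 90.1% and 89.5% in controls, without overlap. The call was lost in each fit that left out 1 library (adjusted p from 0.0897 to 0.164), where the log2 fold change stayed between 0.31 and 0.35.

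EGFR's counts were divided among 3 transcripts whose shares scattered within groups. NM_005228.5 took 42.6%, 25.8% and 57.9% in oeALKBH5 and 59.9%, 44.6% and 19.3% in controls. NM_001346900.2 and NM_001346941.2 took most of the remainder. Replicates of 1 group thus differed by more than the groups did, and none of the 3 was called. The estimates rest on a model that assigns shared reads, and that error is not part of the test. BTC behaved likewise: NM_001316963.2 was at 0 in oeALKBH5 replicate 3 and control replicate 3, and NM_001729.4 was at 0 in control replicate 1. ERRFI1 NM_018948.4, with 85.9% of the gene's counts, had a log2 fold change of 0.32 and no call (edgeR adjusted p = 0.150), and passed with DESeq2 (adjusted p = 0.00113). ERBB3 was almost wholly NM_001982.4, at 98.2% to 99.0% in each library. AREG, EREG and HBEGF had 1 deposited transcript each. For AREG the same counts gave no call among transcripts (SE 0.206, edgeR adjusted p = 0.6285). In the fit on genes they gave an SE of 0.118 and an edgeR adjusted p of 0.00722. A missing call among transcripts can thus come from the fit.

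**Figure D3:**
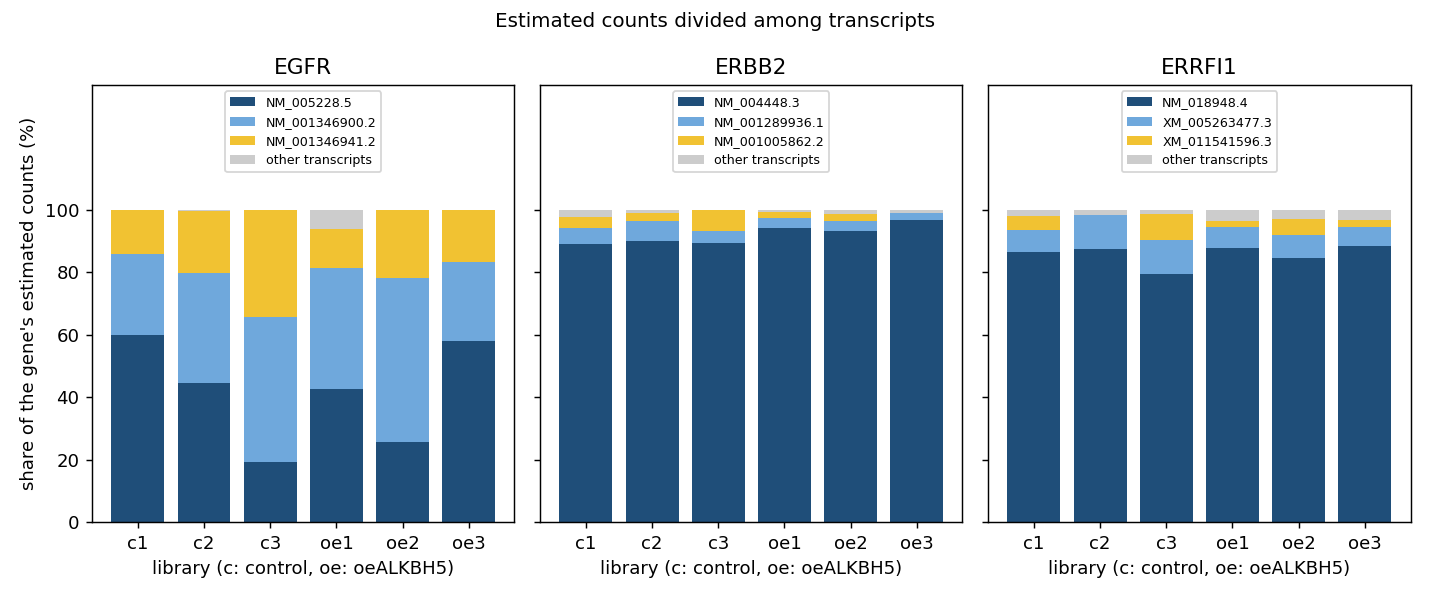
Share of the gene's estimated counts, in percent, given to the 3 most abundant transcripts of EGFR, ERBB2 and ERRFI1 in each library (c, control; oe, oeALKBH5). EGFR's NM_005228.5 runs from 19.3% to 59.9% within the control group, while ERBB2's NM_004448.3 lies at 89.1% to 90.1% in controls and 93.1% to 96.7% in oeALKBH5.

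The other genes of the pathway were read from 6 lists with 116 genes, of which 110 were tested. Of these 34 rose and 17 fell (edgeR), a median log2 fold change of 0.06, beside 20.8% and 22.0% over all genes. With library size alone 46 rose and 7 fell, beside 4266 and 2047 of all 14168 genes tested. Of the other ERBB ligands tested, 2 of 4 rose and 1 fell. NRG1, a neuregulin that binds ERBB3 and ERBB4, was at 6.45, 6.12 and 3.76 CPM against 3.33, 2.59 and 3.45 (log2 fold change 0.80, SE 0.193, adjusted p = 0.00309). NRG3, which binds ERBB4, changed by 0.48 (adjusted p = 0.00568). EGF, the ligand that gives the receptor its name, fell from 13.6 ± 0.136 to 8.97 ± 0.970 CPM (SD, n = 3 each; log2 fold change -0.60, edgeR adjusted p = 4.69e-05). On log2(FPKM + 1) its change was -0.36 (limma adjusted p = 0.00256). AREG and NRG1 thus rose in the same libraries in which EGF fell.

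Of 12 tested genes of ligand shedding and maturation, which include the inhibitor gene TIMP3, 4 rose and 2 fell, with a median of 0.10. The shares of all genes were 20.8% and 22.0%. RHBDF2, an inactive rhomboid that carries ADAM17, rose by 0.42 (SE 0.0711, edgeR adjusted p = 9.39e-05). The sheddase ADAM9 rose by 0.18 (adjusted p = 0.00396). NRDC, which enhances shedding of HBEGF, was at -0.34 (adjusted p = 4.56e-06) and the metalloprotease inhibitor TIMP3 at -0.31 (adjusted p = 3.80e-05). The count that rose was 2 without oeALKBH5 replicate 2 or without control replicate 1.

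Of 22 genes listed for receptor down-regulation, not all of which lower the receptors, 4 rose and 4 fell. The median was 0.05, and 20.8% and 22.0% of all genes rose and fell. ERBIN, which binds ERBB2, changed by 0.25 and HGS, a sorting protein of endosomes, by 0.17. SOCS3 was at -0.39 and the phosphatase PTPRJ at -0.21. The call of HGS was lost without oeALKBH5 replicate 1 (0.11, edgeR adjusted p = 0.0558) and without control replicates 2 (0.0762) or 3 (0.0507). PTPRJ lost it without oeALKBH5 replicate 2 (0.0640) or control replicate 1 (0.0628), with library size alone (0.135), with DESeq2 (0.0736) and on FPKM, where its change was -0.06 (limma adjusted p = 0.487). Counts here moved with 1 library: 2 rose without oeALKBH5 replicate 1, control replicate 1 or control replicate 3. Those that fell numbered 1 without oeALKBH5 replicate 2, and 2 without control replicate 1 or 2. The counts also moved with the method. With library size alone 7 rose and 1 fell, beside 4266 and 2047 of all 14168 genes tested. On FPKM 7 rose and 1 fell, beside 3535 and 1977 of 12016 genes. With DESeq2 4 rose and 1 fell.

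Of 40 tested genes that relay the signal 11 rose and 7 fell, beside 20.8% and 22.0% of all genes, with a median of 0.01. The kinase AKT1 changed by 0.18 and the adaptor CRKL by 0.17. MAP2K2, a kinase that activates ERK, was at -0.23 and the transcription factor STAT3 at -0.23. AKT1 lost its call without control replicate 2 (edgeR adjusted p = 0.0548). STAT3 lost it on FPKM (-0.15, limma adjusted p = 0.0562), and was at -0.15 with library size alone; MAP2K2 was at -0.15 under both settings and kept its call. The counts were 5 higher without control replicate 1, and 6 higher and 4 lower without control replicate 2 or 3. With library size alone they were 15 higher and 2 lower, beside 4266 and 2047 of all 14168 genes tested. On FPKM they were 13 and 1, beside 3535 and 1977 of 12016 genes. With upper quartile scaling they were 11 and 4, beside 3270 and 2847 of all genes.

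The list of RAS and ERK inhibitors, feedback inhibitors of ERK among them, had 4 higher and 2 lower of 14. The shares of all genes were 20.8% and 22.0%, and the list's median was 0.10. SPRY4, a Sprouty protein, rose by 0.38 (SE 0.0596, edgeR adjusted p = 3.59e-05) and the ERK phosphatase DUSP6 by 0.23 (adjusted p = 5.46e-04). The related DUSP5 and DUSP4 were at -0.29 and -0.25. DUSP4 lost its call with library size alone (-0.17, edgeR adjusted p = 0.0625) and on FPKM (-0.14, limma adjusted p = 0.107).

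Transcripts known to be induced by ERK had 9 higher and 1 lower of 18 tested, beside 20.8% and 22.0% of all genes. Their median was 0.37 against 0.0062 over all genes. The list was chosen with earlier results of these data known, so these values are a description and not a test. The cytokine LIF was at 23.6, 18.1 and 18.4 CPM against 4.73, 6.49 and 5.47, which edgeR put at a log2 fold change of 1.84 (SE 0.127, adjusted p = 8.98e-09). PHLDA1 was at 83.2, 78.0 and 73.8 CPM against 45.1, 49.4 and 42.7 (log2 fold change 0.78, adjusted p = 5.62e-09). MAFF, a small bZIP factor, was at -0.24. MAFF did not pass once oeALKBH5 replicate 2 (edgeR adjusted p = 0.0734) or control replicate 2 (0.0810) was left out, nor with library size alone (-0.16, 0.0796) or on FPKM (-0.15, limma adjusted p = 0.1004). Many inputs other than the EGF receptors induce these transcripts.

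**Figure D4:**
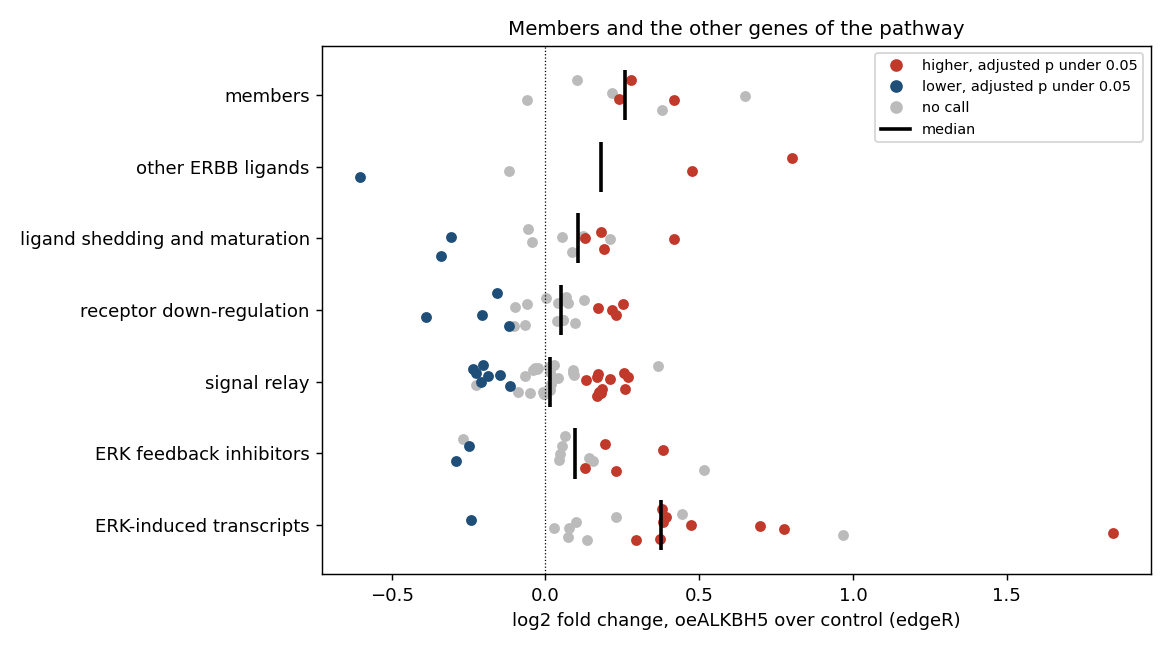
Log2 fold change, oeALKBH5 over control, of each tested gene in the member set and the 6 pathway lists; red and blue points have an adjusted p under 0.05 in edgeR, black ticks are medians, and vertical scatter within a list carries no value. The members' median is 0.26 and that of the ERK-induced transcripts 0.37, while signal relay sits at 0.01. Members and lists were chosen with earlier results of these data known.

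The genes whose pattern over the 6 libraries was most like AREG, among 12433 genes, were VSIG10L, INPP5J and GBP2. Likeness was the root mean square difference of log2 CPM from the control mean, at 0.0367, 0.0369 and 0.0375. For ERRFI1 they were TPM4 (0.0203), PPARG (0.0246) and DENND5A (0.0260). Since they were chosen for their likeness to called members, their own change is not a separate result.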

How the data were processed

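Messenger RNA of 3 oeALKBH5 and 3 control libraries was analysed. For each RefSeq transcript the authors deposited an estimated count, unscaled between libraries, and an FPKM value. The submitters' processing notes name RSEM 1.2.8, Bowtie2 2.2.5, HISAT2 2.1.0 and GRCh38.p13. Their roles, the filters and the strand setting were not given in the sources used here. Estimated counts were summed to genes, rounded, and tested with edgeR 4.0.16 (R 4.3.3): TMM, expression filter at a minimum count of 10, robust quasi-likelihood fit on group, two-sided, Benjamini-Hochberg over all genes, threshold 0.05. SE is the size of the log2 fold change divided by the root of F. FPKM values were summed to genes and, where at least 3 libraries reached 1 FPKM, tested as log2(FPKM + 1) with limma 3.58.1; this scale understates changes of low genes. Transcripts were tested with edgeR on rounded estimated counts. Symbols were matched for 17881 of 18030 genes, and the other 149 held 0.0264% of counts. Promoters and gene names came from RefSeq (GRCh38.p14), where 10 of 10 members matched, and transcript letters and positions from GENCODE release 29. ADAM12, EPHA4 and CLEC4G were not analysed here. Alternatives were other scalings, filters and thresholds, limma-voom, DESeq2 1.42.0, a block for the replicate number, FPKM and each library left out; the left-out libraries for the summed FPKM were added after seeing the data. The fits were tested on simulated data. Members and lists were chosen with earlier results of these data known. Named genes were ALKBH5, all members, up to 2 that rose and 2 that fell per list by p, and the 3 genes most like each of the 2 called members with the largest change; marker genes named singly were chosen after their values were seen.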

Additional observations from a re-analysis of the deposited data

How the results depend on the processing

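ERBB2, AREG and ERRFI1 were called higher under each of the 17 settings for genes. Members higher numbered 5 with library size alone and 5 on FPKM, against 3, and 3 to 5 with 1 library left out. Genes lower numbered 2047 with library size alone and 1977 on FPKM, against 3114, where genes higher were 4266 and 3535, against 2948. Pathway genes lower were 7 and 6 under those settings and 11 to 17 with 1 library left out. At an adjusted p under 0.01, where fewer calls follow by construction, 20 pathway genes were higher and 10 lower. Members higher on FPKM numbered 3 to 5 with 1 library left out. Member transcripts higher were 2 with DESeq2 and 0 in each fit with 1 library left out. Deviations of same-numbered libraries had correlations of -0.019, 0.016 and -0.012, against -0.034 to 0.043 for other pairs. Whether the samples were paired cannot be told from these values. With the replicate block 3128 genes were higher and 3341 lower, against 2948 and 3114. Members higher stayed at 3 with the block, member transcripts higher were 0, and ALKBH5 lost its call (edgeR adjusted p = 0.0538). ERBB3 turned to 0.021 with library size alone and 0.0278 on FPKM, and its FPKM change ran from -0.0113 to 0.0563 with 1 library left out. Among transcripts with no call, leaving out 1 library gave -0.68 to 0.48 for NM_001316963.2, -0.23 to 0.50 for NM_005228.5, -0.034 to 0.50 for NM_001346900.2 and -0.56 to 0.10 for NM_001346941.2; NM_001982.4 was at 0.0215 with library size alone. The cause of these shifts was not tested. Depth limited EREG, BTC, TGFA and ERBB4: a change in the last pair was not detectable at these counts.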
